A study of Homo sapiens with 12 samples.

Results

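The genes described here were 41 genes of macroautophagy, namely the core machinery that forms the autophagosome and the receptors that bring cargo to it. They were chosen by gene symbol, by a rule that uses no measured value but was drawn up with earlier results of these data known, and all 41 were found among the 19973 genes of the expression table. By role, 12 of them act in initiation, 6 in membrane supply and elongation, 10 in the conjugation of ATG8 proteins, 5 encode ATG8 proteins, 6 encode cargo receptors, and the other 2 encode a fusion SNARE and a nuclear autophagy cofactor.

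RNA-seq was done on H460, a human large cell lung carcinoma line, and A549, a human lung adenocarcinoma line, both non-small cell lung cancer (NSCLC) lines whose genotype is labelled WT. Cells were non-treated (control) or were treated with ISP-I (isovalerylspiramycin I, a macrolide of the antibiotic carrimycin) at 10 µM for 48 h, with 3 libraries in each of the 4 groups and 12 libraries in all. Both lines carry inactive KEAP1, as the study's authors noted, and no solvent is named for the controls of the RNA samples. The labels and the RNA-seq methods give replicates without saying whether they were separate cultures, so the p values measure the spread between these libraries, which may be technical.

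Macroautophagy begins when the ULK kinase complex activates the class III PI3-kinase complex, whose lipid product recruits WIPI proteins to the growing membrane. Ubiquitin-like conjugation systems then attach ATG8 proteins, which are the LC3 and GABARAP families, to that membrane, and cargo receptors such as p62 bind ATG8 proteins on one side and cargo on the other. The closed autophagosome fuses with the lysosome, where cargo and receptor are degraded together.

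Levels are the deposited FPKM, which are reads on a gene per length and per library total. Changes are differences of log2(FPKM + 1), given with their SE, and a gene was called when limma's p value, adjusted over all genes tested, was under 0.05. The added 1 draws changes toward 0, most of all those of genes near or under 1 FPKM, so for many genes the ratio of the group means is given beside it. In all counts, more than 2-fold means a change of more than 1 on this log2(FPKM + 1) scale, not a ratio of means over 2. Libraries held 14225849 to 17874422 reads on genes. The median change of all genes tested was -0.15 in H460 and 0.02 in A549. After scaling by the median of ratios between libraries these medians were 0.01 and -0.00. The scaling factors were 1.01 to 1.04 in H460 controls and 0.837 to 0.850 with ISP-I. Changes of well expressed genes in H460 could move up by more than the median of all genes, as that of GABARAPL1 did, from 3.56 to 3.83. Among the 41 genes, calls of a change, or of its difference between the lines, that depend on this scaling are named below. The epithelial keratins KRT8 and KRT18 were at 66.9 FPKM or more in every library, whereas EPCAM and CDH1, which mark epithelial cells too, were at 0.148 FPKM or less in H460. Of the markers of other cells, PTPRC, CD3E and PECAM1 stayed at 0.0368 FPKM or less, COL1A1 at 1.30 or less, and PDGFRB was 2.24 to 2.53 in H460 with ISP-I against 0.429 to 0.646 in its controls. With ISP-I, CDH1 fell in A549 by a change of -1.75 ± 0.09 and KRT8 by -0.99 ± 0.11, EPCAM fell there too (-0.27, adjusted p = 0.0188), and KRT18 rose in H460 (0.90 ± 0.17, adjusted p = 0.00128). The part of these markers in the results was not tested. In RNA of whole cultures, fewer cells that express a gene and less of its RNA per cell cannot be told apart.

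Promoter windows, from 250 bases before to 50 bases after each RefSeq transcription start (GRCh38.p14), were available for 36 of the 41 genes, with 46 windows in all. UVRAG, MAP1LC3A, RB1CC1, ATG4D and STX17 had none. Each window was searched on both strands for the letters of 6 known response elements. The E-box CACGTG was in 6.52% of the windows of the autophagy genes and in 8.36% of all 21379 windows. The core TGACNNNGC of the antioxidant response element was in 10.9% against 13.8%, the FOXO site GTAAACA in 2.17% against 2.87%, and the cAMP response element TGACGTCA in 4.35% against 2.29%. The AP-1 site TGAGTCA (4.01% of all windows) and the amino acid response element TTGCATCA (0.678%) were in none of the 46. The shares of the autophagy genes rest on 0 to 5 of 46 windows, and a match describes the sequence only. The windows of 6 matches are shown because their genes are among those described library by library below. These genes were called higher with ISP-I in both lines, which was not so for all genes with a match. Not shown are ULK3 (E-box and antioxidant response element core), called lower in H460, and CALCOCO2 (antioxidant response element core and FOXO site), called lower in both lines. ATG3 (E-box), also not shown, was called higher in both. The matched letters are in capitals, and each sequence reads 5′ to 3′ along its gene.
ATG14, E-box at position -21 from the start (chr14:55411836-55411861, minus strand): aacaaaatccCACGTGactggctctc
ATG101, antioxidant response element core at position -120 (chr12:52069848-52069876, plus strand): tgtgcttctgTGACTACGCggatgttgtg
MAP1LC3B, antioxidant response element core at position -46 (chr16:87392280-87392308, plus strand): gcgagtcaccTGACCAGGCtgcgggctga
NCOA4, antioxidant response element core at position 24 (chr10:46019958-46019986, minus strand): ctctgaaagcTGACAGTGCtctaactgcg
GABARAPL1, cAMP response element at position -30 (chr12:10212837-10212864, plus strand): gctcgcggggTGACGTCAcagcccgacg
TP53INP2, cAMP response element at position -61 (chr20:34704273-34704300, plus strand): ggcccctttgTGACGTCAcaatcagctg

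In H460, all 41 genes passed the filter of a mean of 0.1 FPKM, GABARAP only through the ISP-I libraries, where it had 7 or 8 reads. The fit called GABARAP higher, and it is set aside in the following counts as resting on too few reads. Of the other 40 genes, 17 were called higher with ISP-I (27.6% of all genes tested were) and 13 lower (41.5% of all genes tested), which left 10 that did not pass. By more than 2-fold, 12 were higher (10.5% of all genes) and 3 lower (15.2% of all genes). By the means, ULK2, ATG13 and CALCOCO2 fell by 2.63-fold, 2.1-fold and 2.29-fold and ATG14 rose by 2.03-fold. Their changes did not reach 1 in size on the log2(FPKM + 1) scale, so they are not among these. In either direction, 30 of 40 were called against 69.2% of all genes, and 15 by more than 2-fold against 25.7%. After median-of-ratios scaling, 20 were higher and 10 lower, against 34.7% and 32.2% of all genes, and their median change was 0.28 instead of 0.03. The control and ISP-I libraries did not overlap for 34 of the 41 genes, GABARAP included, against 72.7% of all genes tested.

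In A549, 40 of the genes were tested, since GABARAP did not pass the filter. There, 20 were called higher (30.5% of all genes tested) and 7 lower (27% of all genes tested), and 13 did not pass. These counts were also 20 and 7 after median-of-ratios scaling, where 29.1% and 28.6% of all genes were called. By more than 2-fold, 6 were higher (4.2% of all genes) and 1, ULK1, was lower (3.51% of all genes). By the means, ATG9A fell by 2.12-fold and WIPI1 rose by 2.24-fold, but on the log2(FPKM + 1) scale neither change reached 1 in size. In either direction, 27 of 40 were called against 57.5% of all genes, and 7 by more than 2-fold against 7.71%. The median change of the tested genes was 0.28, and the groups did not overlap for 31 of the 41 genes, against 65.5% of all genes tested. The share of the tested autophagy genes that was called, 75% in H460 without GABARAP and 67.5% in A549, stood beside 69.2% and 57.5% of all genes.

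The same call was made in both lines for 20 genes. Of these, 14 were higher in both, namely ATG101, ATG14, UVRAG, AMBRA1, ATG2A, ATG3, ATG12, MAP1LC3B, GABARAPL1, SQSTM1, NBR1, OPTN, NCOA4 and TP53INP2 (17.7% of the 12708 genes tested in both lines were). The 6 that were lower in both were ULK1, ULK2, WIPI2, ATG9A, ATG10 and CALCOCO2 (21.4% of those genes). ATG4C and ATG7 were called lower in H460 and higher in A549, as were 3.82% of those genes, and the other 19 genes, GABARAP among them, were called in 1 line or in neither.

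**Figure D1:**
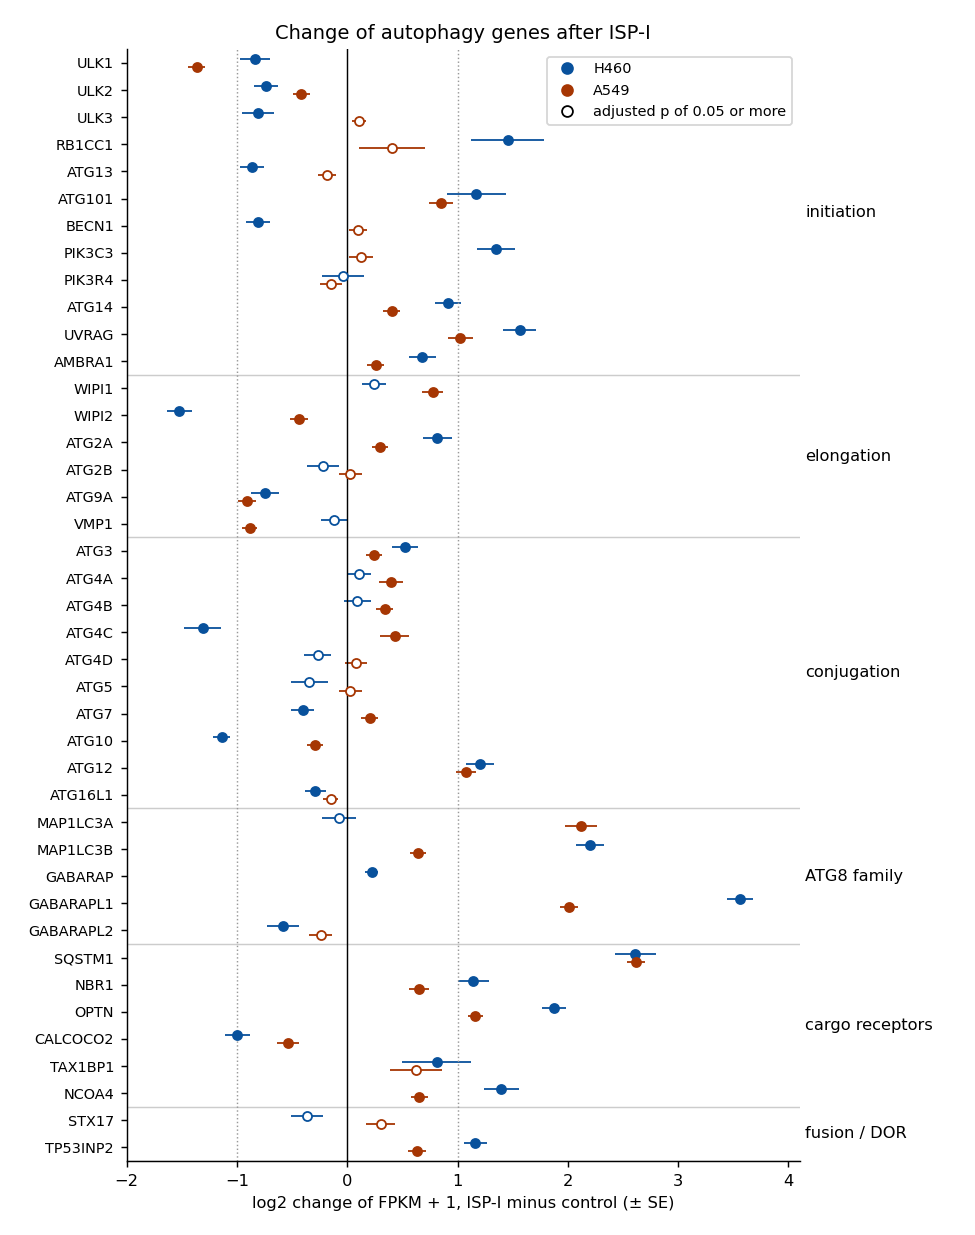
Change of each of the 41 genes with ISP-I in H460 (blue) and A549 (orange-brown), in log2(FPKM + 1) with SE bars, grouped by role. Dotted lines mark changes of -1 and 1, and open circles an adjusted p of 0.05 or more. The receptors SQSTM1, OPTN, NCOA4 and NBR1 lie to the right of 0 in both lines and initiation genes on both sides of it. GABARAP in H460, and MAP1LC3A in H460, rest on 0 to 10 reads per library.

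Initiation genes moved in both directions. The counts by role that follow stand beside the same shares of all genes as above, higher and lower in 27.6% and 41.5% in H460 and in 30.5% and 27% in A549, and with 2 to 12 genes a role no role is called particular by them. In H460, 6 of the 12 were called higher, 5 lower and 1 did not pass, with a median change of 0.32. In A549, 4 were higher, 2 lower and 6 did not pass, with a median of 0.11. The kinase subunits and the lipid kinase partners of this stage did not move as a unit, as the genes below show.

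ULK1, the kinase that starts autophagosome formation, was at 13.4, 15.8 and 16.8 FPKM in H460 controls and at 9.37, 7.32 and 7.79 with ISP-I. In A549 it was at 10.9, 10.1 and 11.7 in controls and at 3.84, 3.56 and 3.45 with ISP-I. The treated libraries were below every control in each line. The change was -0.83 ± 0.13 in H460 (adjusted p = 0.000609), against -1.37 ± 0.08 in A549 (adjusted p = 5.21e-06), a fall of 1.88-fold and 3.02-fold by the means. Its relative ULK2 fell too. In H460 it was at a mean of 1.82 ± 0.332 FPKM in controls and 0.693 ± 0.112 with ISP-I (SD, n = 3; adjusted p = 0.000398), and in A549 at 4.31 ± 0.219 and 2.98 ± 0.160 (adjusted p = 0.00208). ULK3 was called lower in H460, with a change of -0.81 ± 0.14, and in A549 its change was 0.10 ± 0.06 (adjusted p = 0.193).

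The other subunits of the ULK complex are ATG101, ATG13 and RB1CC1. ATG101, a small subunit that stabilizes ATG13, was at 14.3, 16.8 and 17.6 FPKM in H460 controls and at 32.8, 26.9 and 60.4 with ISP-I. In A549 it was at 14.8, 12.6 and 17.6 in controls and at 27.2, 27.7 and 27.8 with ISP-I. Every treated library exceeded every control, although H460 ISP-I library 3 was far above library 2. The change was 1.17 ± 0.26 in H460 (adjusted p = 0.00399), against 0.85 ± 0.11 in A549 (adjusted p = 0.00028). ATG13, the adaptor itself, was called lower in H460, from 5.98 ± 0.189 to 2.84 ± 0.274 FPKM, and in A549 it changed by -0.18 ± 0.08 (adjusted p = 0.0858).

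RB1CC1, which encodes the scaffold FIP200, was at 1.80, 0.726 and 1.75 FPKM in H460 controls and at 5.25, 9.67 and 3.09 with ISP-I. In A549 it was at 7.12, 7.94 and 2.70 in controls and at 6.34, 8.06 and 8.36 with ISP-I. The groups were apart in H460 and overlapped in A549, where control library 3 was low. The change was 1.45 ± 0.33 in H460 (adjusted p = 0.00435), 4.21-fold by the means, against 0.41 ± 0.30 in A549 (adjusted p = 0.282).

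PIK3C3, the catalytic subunit of the class III PI3-kinase, was at 1.53, 0.981 and 1.26 FPKM in H460 controls and at 4.97, 5.98 and 3.49 with ISP-I. In A549 it was at 1.32, 1.44 and 0.866 in controls and at 1.48, 1.28 and 1.41 with ISP-I. The H460 groups were apart by more than their spread, and the A549 groups overlapped. The change was 1.35 ± 0.17 in H460 (adjusted p = 0.000171), 3.83-fold by the means, and 0.12 ± 0.11 in A549 (adjusted p = 0.352). Its regulatory subunit PIK3R4 did not pass the test in either line, with changes of -0.04 ± 0.19 in H460 and -0.15 ± 0.10 in A549, where it passed without control library 3 (-0.23, adjusted p = 0.0286).

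BECN1, the shared scaffold of the PI3-kinase complexes, was called lower in H460, from 9.52 ± 0.803 to 4.99 ± 0.273 FPKM, with a change of -0.81 ± 0.11 (adjusted p = 0.000244). In A549 it was at 9.46 ± 0.589 in controls and 10.2 ± 0.631 with ISP-I, with overlapping groups (0.10 ± 0.08, adjusted p = 0.321). CNTD1 and PSME3, listed at up to 97.2 FPKM, cover 17.1% of its exonic bases on the other strand, and whether counting used strand is not stated. The partners that direct BECN1 to different membranes were called higher in both lines.

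ATG14, the partner that directs the complex to autophagosome formation, was at 6.22, 6.28 and 6.40 FPKM in H460 controls and at 14.1, 12.9 and 11.4 with ISP-I. In A549 it was at 5.88, 6.42 and 5.82 in controls and at 8.13, 8.96 and 7.81 with ISP-I. No treated library reached down to a control in either line. The change was 0.91 ± 0.11 in H460 (adjusted p = 0.000141), against 0.40 ± 0.08 in A549 (adjusted p = 0.00295). Of its exonic bases, 20.8% are also covered by FBXO34 on the other strand, and whether counting used strand is not stated.

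UVRAG, the alternative partner that acts on endosomes and in autophagosome maturation, was at 2.59, 2.59 and 2.17 FPKM in H460 controls and at 10.1, 10.5 and 7.31 with ISP-I. In A549 it was at 3.27, 3.15 and 2.44 in controls and at 6.90, 6.31 and 7.88 with ISP-I. The lowest treated library was more than the highest control in each line. The change was 1.56 ± 0.15 in H460 (adjusted p = 2.7e-05), against 1.02 ± 0.11 in A549 (adjusted p = 0.000127). AMBRA1, which binds BECN1 and promotes ULK1 ubiquitination, rose by 0.68 ± 0.12 and 0.26 ± 0.07, and the A549 call was lost without control library 1 (0.22, adjusted p = 0.061) or without ISP-I library 1 (0.24, adjusted p = 0.0711) or 3 (0.25, adjusted p = 0.0676).

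**Figure D2:**
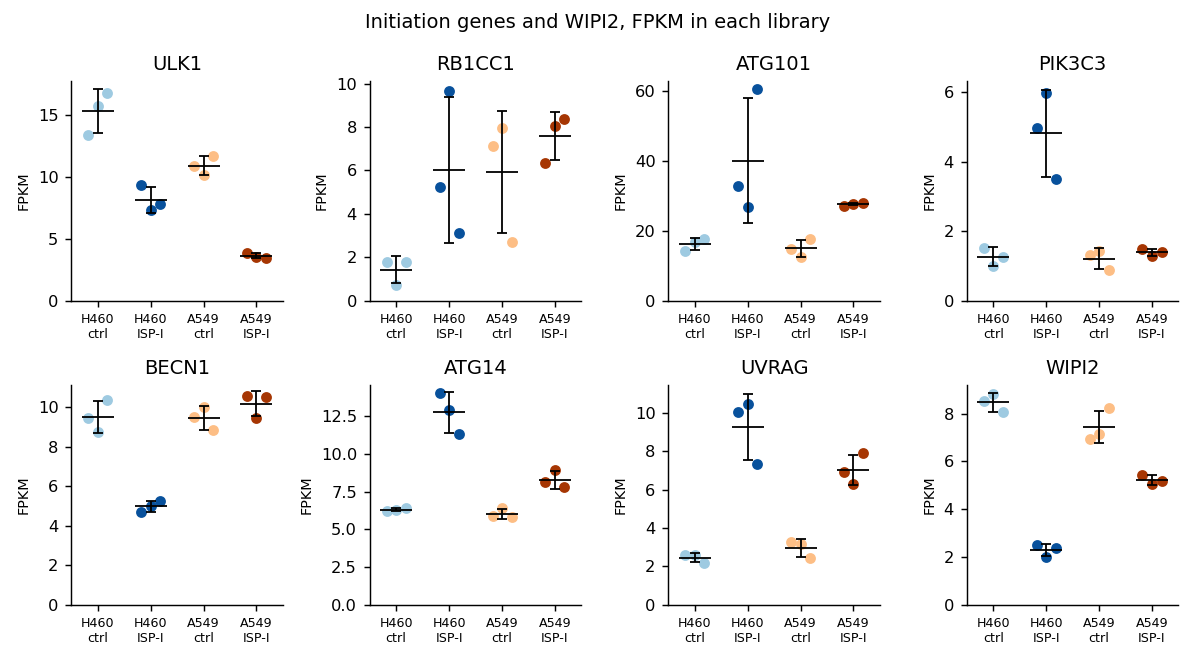
FPKM in each library for 7 initiation genes and WIPI2 (points), with the mean and SD of the 3 libraries of a group (bars), on axes that start at 0. The H460 ISP-I points lie above the controls for RB1CC1, ATG101, PIK3C3, ATG14 and UVRAG and below them for ULK1, BECN1 and WIPI2.

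Of the 6 genes of membrane supply and elongation, 1 was called higher in H460, 2 lower, and 3 did not pass. Their median change of -0.17 was near the median of all genes and became 0.05 after median-of-ratios scaling. In A549, 2 were higher, 3 lower and 1 did not pass, with a median of -0.20. No single direction held among them.

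WIPI2, the lipid-binding protein that recruits ATG16L1 to the forming autophagosome, was at 8.52, 8.82 and 8.07 FPKM in H460 controls and at 2.51, 1.998 and 2.38 with ISP-I. In A549 it was at 6.96, 7.14 and 8.23 in controls and at 5.45, 5.05 and 5.19 with ISP-I. The groups were apart in both lines, with a wider gap in H460. The change was -1.53 ± 0.11 in H460 (adjusted p = 6.91e-06), 3.69-fold down by the means, and -0.44 ± 0.08 in A549 (adjusted p = 0.00244).

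WIPI1, the close relative of WIPI2, was at 2.07 ± 0.238 FPKM in H460 controls and 2.63 ± 0.219 with ISP-I, a change of 0.24 ± 0.11 that did not pass (adjusted p = 0.0783) but did after median-of-ratios scaling (0.45, adjusted p = 0.00756). WIPI1 in H460 was also called with limma voom (0.64, adjusted p = 0.0104) and in a single fit of 12 libraries (0.24, adjusted p = 0.038). In A549 it rose from 1.32 ± 0.223 to 2.97 ± 0.245 FPKM (0.78 ± 0.10, adjusted p = 0.000241). Other genes share 28.1% of its exonic bases on the other strand.

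ATG2A, which transfers lipids into the growing membrane, was at 4.68, 5.65 and 5.22 FPKM in H460 controls and at 11.2, 9.96 and 8.59 with ISP-I. In A549 it was at 4.88, 4.87 and 4.84 in controls and at 6.28, 6.50 and 5.85 with ISP-I. Treated libraries were above all controls in both lines. It rose by 0.82 ± 0.13 in H460 (adjusted p = 0.000558), and by 0.30 ± 0.07 in A549 (adjusted p = 0.00827), whereas its paralogue ATG2B did not pass in either line (-0.22 ± 0.15 and 0.03 ± 0.10).

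ATG9A, the scramblase of the vesicles that seed the autophagosome, was at 8.78, 10.4 and 8.31 FPKM in H460 controls and at 5.50, 5.17 and 4.48 with ISP-I. In A549 it was at 7.16, 7.75 and 8.42 in controls and at 3.88, 3.51 and 3.59 with ISP-I. The groups were apart in both lines. It fell by a change of -0.75 ± 0.13 in H460 (adjusted p = 0.000821), against -0.91 ± 0.08 in A549 (adjusted p = 4.72e-05). The gene AC068946.2 covers 38.8% of its exonic bases on the same strand and was listed at 0.0229 FPKM or less. How reads on shared bases were counted is not stated, so this value does not tell whether ATG9A was undercounted.

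VMP1, a scramblase of the endoplasmic reticulum, was at 23.5, 22.9 and 19.3 FPKM in H460 controls and at 18.7, 20.2 and 21.3 with ISP-I. In A549 it was at 58.0, 51.1 and 54.7 in controls and at 28.5, 28.4 and 30.3 with ISP-I. The H460 groups overlapped and the A549 groups were far apart. The change was -0.12 ± 0.12 in H460 (adjusted p = 0.405), positive after median-of-ratios scaling (0.15), and -0.89 ± 0.07 in A549 (adjusted p = 2.34e-05).

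The conjugation genes, which encode the E1-like, E2-like and E3-like enzymes for ATG12 and ATG8 and the ATG4 proteases, moved in both directions. In H460, 2 of the 10 were higher, 4 lower and 4 did not pass, with a median of -0.28. After median-of-ratios scaling, 4 were higher and 2 lower, with a median of -0.02. In A549, 6 were higher, 1 lower and 3 did not pass, with a median of 0.22, and after that scaling 5 were higher and 1 lower.

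ATG12, the ubiquitin-like protein that is joined to ATG5, was at 4.96, 4.06 and 4.35 FPKM in H460 controls and at 10.2, 12.5 and 12.1 with ISP-I. In A549 it was at 5.98, 5.53 and 4.61 in controls and at 12.4, 12.5 and 12.3 with ISP-I. Every treated library was above every control in both lines. It was 1.20 ± 0.12 in H460 (adjusted p = 4.31e-05), against 1.08 ± 0.09 in A549 (adjusted p = 3.25e-05), and the difference of 0.13 ± 0.15 did not pass (adjusted p = 0.491), but did after median-of-ratios scaling (0.42, adjusted p = 0.022). Its partner ATG5 did not pass in either line, with 3.80 ± 1.05 and 2.73 ± 0.338 FPKM in H460 and 5.01 ± 0.762 and 5.09 ± 0.188 in A549. A single fit of 12 libraries did call ATG5 lower in H460 (-0.345, adjusted p = 0.0468).

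ATG10, the E2-like enzyme that joins ATG12 to ATG5, was at 2.13, 2.12 and 2.02 FPKM in H460 controls and at 0.442, 0.397 and 0.371 with ISP-I, or 30 to 43 reads. In A549 it was at 2.16, 1.92 and 1.94 in controls and at 1.44, 1.53 and 1.38 with ISP-I. It fell in both lines without overlap. The change was -1.14 ± 0.08 in H460 (adjusted p = 4.9e-06), 5.18-fold by the means and -2.12 with an added 0.1 in place of 1, and -0.29 ± 0.07 in A549 (adjusted p = 0.0094). ATG12 and ATG10, which take part in the same conjugation, therefore moved in opposite directions.

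ATG4C, a protease that processes ATG8 proteins, was at 5.76, 3.28 and 4.55 FPKM in H460 controls and at 1.26, 1.25 and 1.06 with ISP-I. In A549 it was at 3.14, 3.34 and 2.41 in controls and at 3.61, 4.26 and 5.17 with ISP-I. The groups did not overlap in either line, and their order was opposite. The change was -1.31 ± 0.17 in H460 (adjusted p = 0.000145), against 0.43 ± 0.13 in A549 (adjusted p = 0.024). The A549 call was lost without ISP-I library 2 (adjusted p = 0.0659) or 3 (0.32, adjusted p = 0.0913), and with no filter on low values (adjusted p = 0.0911).

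ATG4B, the main ATG8 protease, was at 8.24, 9.68 and 8.97 FPKM in H460 controls and at 9.20, 8.93 and 10.8 with ISP-I. In A549 it was at 8.10, 8.37 and 9.18 in controls and at 10.4, 11.6 and 11.2 with ISP-I. The H460 groups overlapped and the A549 groups did not. The change was 0.09 ± 0.12 in H460 (adjusted p = 0.511), which passed after median-of-ratios scaling (0.35, adjusted p = 0.0351), and 0.34 ± 0.08 in A549 (adjusted p = 0.00587).

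Among the remaining conjugation genes, changes were small. ATG7, the E1-like enzyme, was at 4.47 ± 0.0539 and 3.13 ± 0.293 FPKM in H460 and at 4.85 ± 0.321 and 5.72 ± 0.112 in A549. It was called lower in H460 and higher in A549, but neither call was made after median-of-ratios scaling (adjusted p = 0.178 and 0.107), and the A549 call was lost without any 1 of 5 of the 6 libraries (adjusted p = 0.107 to 0.142). ATG3, the E2-like enzyme for ATG8, rose by 0.52 ± 0.11 in H460 and 0.24 ± 0.07 in A549, the latter not without ISP-I library 2 (adjusted p = 0.0585) or 3 (adjusted p = 0.0901). ATG16L1, which places the ATG12 conjugate on the membrane, was called lower in H460 (-0.29 ± 0.10), but not after median-of-ratios scaling (-0.03, adjusted p = 0.796), nor without any 1 of the control libraries or ISP-I library 1 (adjusted p = 0.0773 to 0.0904). The protease ATG4A was called higher in A549 (0.40 ± 0.11), but not without ISP-I library 2 (adjusted p = 0.0602) or 3 (adjusted p = 0.0552), nor with no filter on low values (adjusted p = 0.0564). In H460, ATG4A was called only after median-of-ratios scaling (0.34, adjusted p = 0.0227, against 0.10 without it) or with limma voom (0.42, adjusted p = 0.0285). ATG4D did not pass in either line, except in H460 without ISP-I library 3 (-0.30, adjusted p = 0.0481) or in a single fit of 12 libraries (-0.27, adjusted p = 0.0395).

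**Figure D3:**
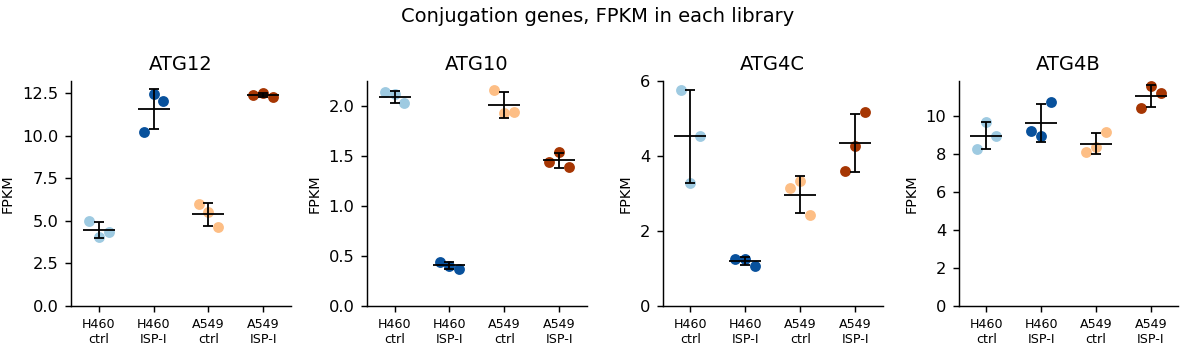
FPKM in each library for 4 conjugation genes (points), with the mean and SD of the 3 libraries of a group (bars), on axes that start at 0. ATG12 is higher and ATG10 lower with ISP-I in both lines, ATG4C is lower in H460 and higher in A549, and ATG4B overlaps in H460.

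The largest change of the 41 genes in H460 was that of an ATG8 gene, GABARAPL1. Without GABARAP, which is at a few reads, 2 of the other 4 were called higher in H460, 1 lower and 1 did not pass. In A549, 3 of the same 4 were higher and 1 did not pass. The median change of these 4 genes was 1.06 in H460 and 1.33 in A549. Summed over the 5 genes, the level in H460 was 22.9 ± 2.76 FPKM in controls and 108.2 ± 4.46 with ISP-I, and in A549 it was 27.4 ± 3.21 and 52.7 ± 0.475 (SD, n = 3), and the lowest treated sum exceeded the highest control sum in each line.

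GABARAPL1 (chr12:10212458-10223128, hg38), a member of the GABARAP family, was at 3.43, 3.98 and 3.89 FPKM in H460 controls and at 55.0, 50.6 and 60.8 with ISP-I. In A549 it was at 1.75, 1.98 and 2.16 in controls and at 10.6, 11.3 and 10.9 with ISP-I. The gap between groups was many times the spread in both lines. The change was 3.56 ± 0.12 in H460 (adjusted p = 2.06e-07), against 2.01 ± 0.08 in A549 (adjusted p = 9.72e-07), or 14.7-fold and 5.58-fold by the means. Its promoter window holds the cAMP response element letters shown above.

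MAP1LC3B (chr16:87383953-87404779), the LC3 protein most used as an autophagosome marker, was at 10.3, 10.00 and 7.81 FPKM in H460 controls and at 46.8, 47.6 and 44.7 with ISP-I. In A549 it was at 9.92, 10.4 and 10.9 in controls and at 16.9, 16.0 and 17.5 with ISP-I. The control levels of the lines overlapped, and the treated levels were far apart. The change was 2.20 ± 0.13 in H460 (adjusted p = 2.06e-06), against 0.64 ± 0.07 in A549 (adjusted p = 0.000115). MAP1LC3B2, a near-identical copy, can share its reads, so the split between these genes is uncertain.

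MAP1LC3A (chr20:34546854-34560345), the related LC3A gene, was near 0 in H460, with 1, 10 and 0 reads in controls and 2, 2 and 3 with ISP-I, so no fold is given there. In A549 it was at 2.01, 2.36 and 3.59 FPKM in controls and at 15.1, 14.8 and 14.0 with ISP-I. The A549 groups were far apart. The change in A549 was 2.12 ± 0.15 (adjusted p = 1.12e-05), or 5.51-fold by the means.

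GABARAPL2 was at 9.52 ± 1.53 FPKM in H460 controls and 5.99 ± 0.799 with ISP-I, a change of -0.59 ± 0.15 (adjusted p = 0.00652) that did not pass after median-of-ratios scaling (-0.34, adjusted p = 0.0689). In A549 it was at 12.3 ± 1.78 and 10.2 ± 0.643 (adjusted p = 0.0812), and it passed without control library 1 (-0.33, adjusted p = 0.0314). GABARAP itself had 0, 3 and 2 reads in H460 controls, 7, 8 and 7 with ISP-I, 5, 0 and 1 in A549 controls and 3, 1 and 1 with ISP-I. Other genes cover 48.2% of its exonic bases in the annotation, 35.4% on the same strand, and its level cannot be read from so few reads.

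The make-up of the ATG8 sum differed between the lines after ISP-I. In H460, the share of GABARAPL1 went from a mean of 16.7% (13.8% to 19.7%) to 51.2% (48.7% to 53.9%), that of GABARAPL2 from 41.4% to 5.52%, and that of MAP1LC3B was 40.7% and 42.9%. In A549, GABARAPL1 went from 7.16% to 20.8%, MAP1LC3A from 9.53% to 27.8%, GABARAPL2 from 44.9% to 19.5%, and MAP1LC3B from 38.1% to 31.9%. GABARAPL2 was the largest share in each A549 control library and in none of the treated libraries. These shares compare levels per gene length within a library and do not depend on the scaling between libraries. GABARAP, whose level cannot be read, entered them at 0.732% or less, so the sums and shares hold for the other ATG8 genes only.

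**Figure D4:**
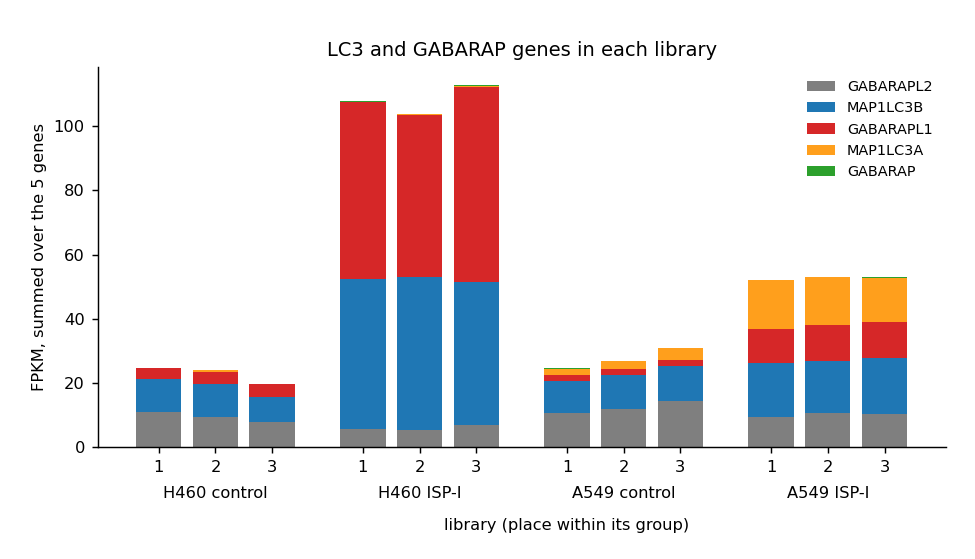
FPKM of the 5 ATG8 genes, stacked, in each of the 12 libraries, on an axis that starts at 0. The sum is 104 to 113 in H460 with ISP-I, where GABARAPL1 and MAP1LC3B make up nearly all of what was counted. It is 52.1 to 53.0 in A549 with ISP-I, where MAP1LC3A is also visible. The level of GABARAP could not be read.

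Most cargo receptors were called higher in both lines, in counts of 6 genes. In H460, 5 of the 6 were called higher and 1 lower, with a median change of 1.27, and in A549, 4 were higher, 1 lower and 1 did not pass, with a median of 0.65. The median of the 10 conjugation genes was -0.28 and 0.22 in the same lines, and that of the 12 initiation genes 0.32 and 0.11.

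SQSTM1 (chr5:179806398-179838078), which encodes p62, the receptor for ubiquitinated cargo, was the most abundant of the 41 genes in every library. It was at 244.6, 278.7 and 270.8 FPKM in H460 controls and at 1641, 1370 and 1898 with ISP-I. In A549 it was at 139.5, 144.3 and 155.9 in controls and at 897, 877 and 939 with ISP-I. The lowest treated library was several times the highest control in each line. The change was 2.61 ± 0.19 in H460 (adjusted p = 5.5e-06), against 2.62 ± 0.08 in A549 (adjusted p = 3.59e-07), or 6.18-fold and 6.17-fold by the means. The difference between the lines was -0.01 ± 0.18 (adjusted p = 0.98), and 0.31 after median-of-ratios scaling, still not called. Its share of the summed receptors went from 79.8% to 90.9% in H460 and from 66.5% to 88.8% in A549. The neighbours MGAT4B and MRNIP cover 22.4% of its exonic bases on the other strand, and neither exceeded 40.2 FPKM.

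NCOA4, the receptor for ferritin, was at 43.96, 41.3 and 38.9 FPKM in H460 controls and at 122.1, 124.9 and 87.9 with ISP-I. In A549 it was at 36.9, 37.0 and 31.8 in controls and at 53.3, 55.5 and 58.8 with ISP-I. It was higher in every treated library, with a larger rise in H460. The change was 1.39 ± 0.16 in H460 (adjusted p = 8.15e-05), against 0.65 ± 0.08 in A549 (adjusted p = 0.000233), and the difference was 0.74 ± 0.18 (adjusted p = 0.00432).

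NBR1, a receptor that acts with p62, was at 10.9, 10.5 and 11.5 FPKM in H460 controls and at 27.6, 28.5 and 20.7 with ISP-I. In A549 it was at 11.5, 12.5 and 10.1 in controls and at 18.7, 17.3 and 19.0 with ISP-I. The groups did not overlap in either line. The change was 1.14 ± 0.14 in H460 (adjusted p = 0.00013), against 0.65 ± 0.09 in A549 (adjusted p = 0.000408).

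OPTN, the receptor optineurin, which acts in mitophagy and against bacteria, was at 0.933, 0.910 and 1.23 FPKM in H460 controls and at 6.62, 6.45 and 6.14 with ISP-I. In A549 it was at 8.74, 8.58 and 7.91 in controls and at 19.7, 19.8 and 20.6 with ISP-I. The rise was larger in H460, where treated cells still stayed below the A549 controls. The change was 1.87 ± 0.11 in H460 (adjusted p = 2.2e-06), against 1.16 ± 0.07 in A549 (adjusted p = 5.08e-06), or 6.26-fold and 2.38-fold by the means.

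The receptors CALCOCO2 and TAX1BP1, paralogues that bind ubiquitinated cargo, differed. CALCOCO2, also named NDP52, was at 7.72 ± 0.552 FPKM in H460 controls and 3.38 ± 0.346 with ISP-I (-0.996 ± 0.12, adjusted p = 9.08e-05), and at 9.39 ± 1.29 and 6.13 ± 0.119 in A549 (-0.54 ± 0.10, adjusted p = 0.00211), so it fell in both lines. TAX1BP1 was at 6.61, 4.16 and 6.63 FPKM in H460 controls and at 10.7, 17.8 and 6.36 with ISP-I, and at 10.6, 12.3 and 5.36 in A549 controls and 13.5, 14.7 and 14.6 with ISP-I. Its H460 groups overlapped, since ISP-I library 3 lay among the controls, and A549 control library 3 was low, as it was for RB1CC1. Its H460 call (0.81 ± 0.32, adjusted p = 0.0468) was lost without any 1 of 5 of the 6 libraries (adjusted p = 0.0717 to 0.147), and was 0.47 without ISP-I library 2. The H460 call of TAX1BP1 was also lost with no filter on low values (adjusted p = 0.174). In A549 its change of 0.62 ± 0.24 did not pass (adjusted p = 0.0538), but did without control library 3 (0.30, adjusted p = 0.00307) or 2 (0.83, adjusted p = 0.0149). The A549 change also passed after median-of-ratios scaling (0.59, adjusted p = 0.0491) and with limma voom (0.67, adjusted p = 0.0322).

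**Figure D5:**
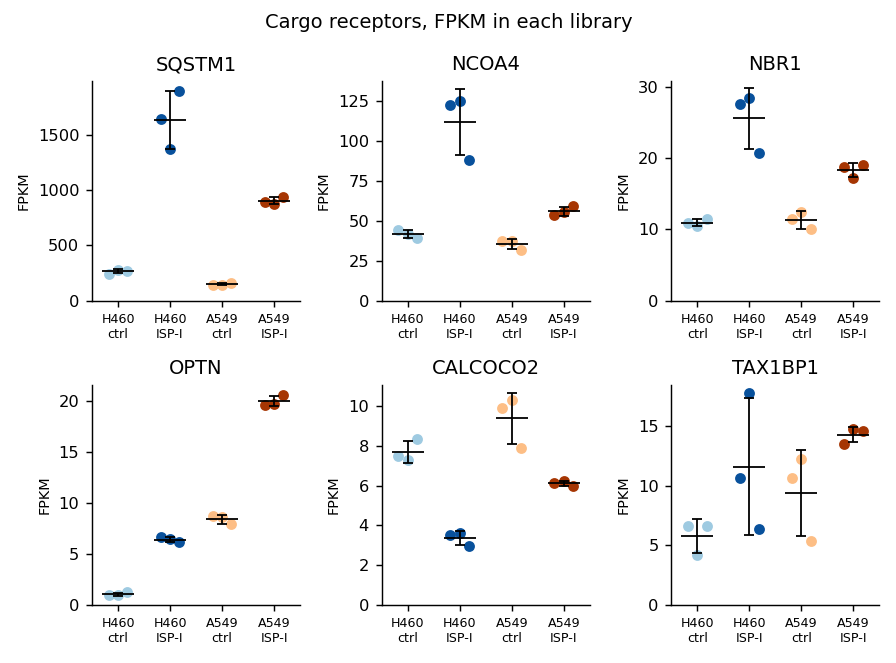
FPKM in each library for the 6 cargo receptors (points), with the mean and SD of the 3 libraries of a group (bars), on axes that start at 0. SQSTM1, NCOA4, NBR1 and OPTN are higher in every ISP-I library than in every control of the line, CALCOCO2 is lower, and TAX1BP1 is scattered.

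The other 2 genes were STX17, the SNARE of the closed autophagosome, and TP53INP2, a nuclear cofactor that also binds ATG8 proteins and is known as DOR. TP53INP2 was at 4.72, 4.68 and 4.96 FPKM in H460 controls and at 11.5, 12.4 and 11.9 with ISP-I, and at 1.95, 2.04 and 1.77 in A549 controls and 3.77, 3.43 and 3.35 with ISP-I. The groups were apart in both lines. Its change was 1.16 ± 0.10 in H460 (adjusted p = 1.75e-05), against 0.63 ± 0.08 in A549 (adjusted p = 0.000278). STX17 was at 3.11, 2.52 and 2.99 FPKM in H460 controls and at 2.38, 2.27 and 1.45 with ISP-I, and at 4.28, 4.47 and 2.99 in A549 controls and 4.45, 5.22 and 5.41 with ISP-I. It did not pass in H460 (-0.36 ± 0.15, adjusted p = 0.0528) or in A549 (0.30 ± 0.13, adjusted p = 0.0805), and the H460 call was made without ISP-I library 1 (-0.45, adjusted p = 0.0486) or 2 (-0.43, adjusted p = 0.0437), and the A549 call without control library 2 (0.39, adjusted p = 0.0477). The H460 call was also made with a minimum mean of 1 FPKM (adjusted p = 0.048) or in a single fit of 12 libraries (adjusted p = 0.0405).

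The difference of the change between the lines (H460 minus A549) was tested as an interaction over all 12 libraries. Without GABARAP, it was positive and called for 13 of 40 genes (18.6% of all genes tested) and negative and called for 11 (34.7% of all genes), so 24 were called in all against 53.3% of all genes. By more than 1 on the log2 scale, 3 were positive (5.93% of all genes) and 3 negative (10.1% of all genes), or 6 against 16% in either direction. With median-of-ratios scaling, 17 were positive (27.2% of all genes) and 8 negative (23.5% of all genes). That scaling lost the calls of WIPI1 (adjusted p = 0.104), CALCOCO2 (adjusted p = 0.222) and STX17 (adjusted p = 0.0859), all negative. It gained those of ATG3 (0.57, adjusted p = 0.00156), ATG9A (0.42, adjusted p = 0.0377), ATG12 and RB1CC1. Without that scaling, the 3 above 1 were MAP1LC3B (1.56 ± 0.14, adjusted p = 2.13e-06), GABARAPL1 (1.55 ± 0.13, adjusted p = 1.35e-06) and PIK3C3 (1.22 ± 0.22, adjusted p = 0.000516). The 3 below -1 were MAP1LC3A (-2.19 ± 0.24, adjusted p = 1.31e-05), ATG4C (-1.74 ± 0.23, adjusted p = 4.87e-05) and WIPI2 (-1.09 ± 0.13, adjusted p = 1.9e-05). MAP1LC3A had no more than 10 reads in any H460 library, and with limma voom on reads its difference did not pass (-1.85, adjusted p = 0.127). RB1CC1 had a difference of 1.05 ± 0.52 that did not pass (adjusted p = 0.106), and it passed without A549 control library 3 (1.45, adjusted p = 0.016) or without H460 ISP-I library 3 (1.38, adjusted p = 0.0247), after median-of-ratios scaling (1.31, adjusted p = 0.0456) and with limma voom (1.86, adjusted p = 0.0278).

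Before treatment, the lines differed in part of these genes. Of the 40 tested, 8 were higher in H460 than in A549 controls (28.6% of all genes tested) and 7 lower (31.6% of all genes), or 15 against 60.2% in either direction. By more than 2-fold, 1 was higher (5.64% of all genes) and 4 lower (8.78% of all genes), or 5 against 14.4%. The line, and any batch that goes with it, cannot be told apart. The gene higher in H460 was ATG4D (1.11 ± 0.10, adjusted p = 1.88e-05). The 4 lower were OPTN (-2.22 ± 0.10, adjusted p = 2.98e-07), MAP1LC3A (-1.60 ± 0.20, adjusted p = 0.000177), RB1CC1 (-1.44 ± 0.33, adjusted p = 0.00523) and VMP1 (-1.28 ± 0.10, adjusted p = 8.74e-06). Without A549 control library 3, the number lower was 13 instead of 7. The RB1CC1 call was lost with no filter on low values (adjusted p = 0.0556).

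A further 45 genes of the pathway, not among the 41, were read from lists of core factors, organelle receptors, fusion factors and regulators. With ISP-I, 19 rose and 9 fell in H460, and 21 rose and 7 fell in A549, with median changes of 0.21 and 0.26. Of all genes tested, 27.6% rose and 41.5% fell in H460, and 30.5% rose and 27% fell in A549. The counts by list that follow stand beside these same shares, and no list is called particular by them. The 28 called in each line are 62.2% of the 45, against 69.2% of all genes in H460 and 57.5% in A549. After median-of-ratios scaling 25 rose and 9 fell in H460, against 34.7% and 32.2% of all genes. By more than 2-fold, 11 were higher (10.5% of all genes) and 3 lower (15.2% of all genes) in H460. In A549 the numbers were 3 (4.2% of all genes) and 1 (3.51% of all genes). Called genes of low level could change by more by the means without being counted here. In H460, ATG16L2 fell by 6.08-fold by the means, from 1.23 to 0.202 FPKM. MAP1LC3C rose there by 4.43-fold, from 0.221 ± 0.141 to 0.980 ± 0.300 FPKM (SD, n = 3), so its fold rests on control levels near 0. PLEKHM1, an adaptor that joins late endosomes to the HOPS tether and to ATG8 proteins, was at 4.40, 4.74 and 4.93 FPKM in H460 controls and at 31.0, 30.9 and 30.4 with ISP-I, and at 4.42, 4.59 and 5.20 in A549 controls and 19.4, 17.4 and 19.3 with ISP-I. It rose in both lines, by 2.48 ± 0.10 in H460 (adjusted p = 4.83e-07), against 1.78 ± 0.08 in A549 (adjusted p = 1.72e-06).

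Of the 11 fusion factors, 6 were called higher and 2 lower in H460, whereas in A549 the numbers were 7 and 2. The late endosome GTPase RAB7A (1.49 ± 0.11) and the HOPS and CORVET subunits VPS18 (1.95 ± 0.12) and VPS11 (1.25 ± 0.12) rose by more than 2-fold in H460, and VPS39, another HOPS subunit, fell (-1.03 ± 0.12). In A549 these changed by 0.33 ± 0.06, 0.64 ± 0.10, 0.59 ± 0.09 and -0.47 ± 0.07, and all were called. The subunits of HOPS thus did not move in 1 direction in either line.

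Of the 14 other core factors, 6 were higher and 2 lower in H460, whereas in A549 the numbers were 4 and 3. NRBF2, a subunit of the PI3-kinase complex with ATG14, rose by 1.62 ± 0.13 in H460 and 0.76 ± 0.11 in A549, EPG5, a tethering factor, by 1.38 ± 0.16 in H460, and TECPR1, which binds the ATG12 conjugate on lysosomes, changed by -1.34 ± 0.09 in H460. Of the 10 organelle receptors, 3 were higher and 3 lower in H460, whereas in A549 the numbers were 3 and 1. The endoplasmic reticulum receptor RTN3 was lower in both lines (-1.16 ± 0.11 and -1.31 ± 0.07), and TOLLIP, which binds ubiquitinated cargo, was higher in both (1.56 ± 0.12 and 0.69 ± 0.09). SEC62, the receptor of recovering endoplasmic reticulum, was higher in both (1.23 ± 0.24 and 0.75 ± 0.26). Its A549 controls were scattered, at 8.87 to 20.4 FPKM against 25.5 to 27.45 with ISP-I (adjusted p = 0.0358).

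Of the 10 regulators, 4 were higher and 2 lower in H460, whereas in A549 the numbers were 7 and 1. MITF, a transcription factor of the family that drives lysosomal genes, rose by 1.90 ± 0.15 in H460 and 1.85 ± 0.09 in A549, or 6.31-fold and 4.22-fold by the means. Its relative TFE3 was at 56.8, 63.7 and 63.1 FPKM in H460 controls and at 183.6, 164.3 and 177.1 with ISP-I (adjusted p = 1.19e-05), and it rose by 0.61 ± 0.08 in A549. Another relative, TFEB, did not pass in H460 (0.11 ± 0.10, adjusted p = 0.343) and was lower in A549 (-0.60 ± 0.13, adjusted p = 0.0051). Its mean there was 0.98 FPKM in controls and 0.29 with ISP-I, a fall of 3.4-fold. PRKAA2, a catalytic subunit of AMPK, rose by 1.83 ± 0.22 in H460 and did not pass in A549 (0.33 ± 0.13, adjusted p = 0.0583). TP53INP1, a paralogue of TP53INP2, was at 0.394, 0.210 and 0.262 FPKM in H460 controls and at 0.397, 0.575 and 0.466 with ISP-I, and at 1.07, 1.10 and 1.12 in A549 controls and 7.002, 6.45 and 7.06 with ISP-I. It rose in A549 (1.90 ± 0.07, adjusted p = 8.79e-07) and did not pass in H460 (0.20 ± 0.08, adjusted p = 0.0509).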

How the data were processed

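RNA of 12 samples was sequenced by the authors as paired-end reads, filtered with FastQC, mapped to hg38 with HISAT2, counted with HTSeq 0.9.1 and deposited as FPKM per gene. The annotation version and the strand setting are not given in the sources used here. The deposited table has a gene length column (other unit, bases), and FPKM times length gave whole reads for at least 99.99% of the values in each library (within 0.05 read). Library columns carry the line, the treatment and a running number within the line, which is not the replicate number of the sample titles. Libraries were therefore numbered by their place within a group. Broken lines (4) were left out.

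In each line, log2(FPKM + 1) of 3 ISP-I and 3 control libraries was fitted with limma 3.58.1 (R 4.3.3, mean-variance trend) over all genes whose mean reached 0.1 FPKM, with Benjamini-Hochberg adjustment. The difference between lines was the interaction in a fit of 12 libraries, and untreated lines were compared likewise. The fit was tested on simulated data with the same dispersion for every gene and changes only in well expressed genes. That test does not cover genes of low level or genes whose libraries spread more. Alternatives were an added 0.1, a minimum mean of 1 FPKM or no filter, median-of-ratios scaling, limma voom on recovered reads (at least 10 reads in 3 libraries), a single fit of 12 libraries, and leaving out each library. The members and gene lists were chosen with earlier results of these data known. Values by library are given for 23 of 41 members, namely those called at over 2-fold in a line, the 2 with the smallest p per role and line, and those whose lines differ by more than 1 (log2). Further library values, of TAX1BP1, GABARAP, PLEKHM1, TFE3 and TP53INP1, are given to show the spread or read number. Exonic overlaps used GENCODE v44 and promoters used RefSeq. Other genes covered more than 10% of the exonic bases of 9 of the 41 genes. These were ATG101 (19.2%), BECN1, ATG14, WIPI1, ATG4D (14.7%), ATG7 (18.1%), ATG9A, GABARAP and SQSTM1. Python 3.11.15 with numpy 2.4.6 and pandas 2.3.3 handled the tables.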

Additional observations from a re-analysis of the deposited data

Results flagged for a closer look

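For 6 genes the change with ISP-I differed between the lines by more than 1 on the log2 scale in the test of the difference itself (H460 minus A549). The differences were 1.22 for PIK3C3, -1.09 for WIPI2, -1.74 for ATG4C, -2.19 for MAP1LC3A, 1.56 for MAP1LC3B and 1.55 for GABARAPL1. ATG4C is the only one of them that was called in opposite directions in the lines. Its A549 call was lost with no filter on low values or without ISP-I library 2 or 3. Leaving out any 1 library kept each of the 6 differences called, with adjusted p of at most 0.00198. The alternatives kept each difference called except that of MAP1LC3A, whose H460 libraries held 0 to 10 reads and which gave -1.85 (adjusted p = 0.127) with limma voom. With median-of-ratios scaling, WIPI2 was -0.86. The cause of these differences was not tested.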

How the results depend on the processing

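No paired analysis was possible because the library columns carry no replicate number, so the fit with a replicate block was not run. Of the counts, here with GABARAP included, those that moved by more than 1.5 times were these. With an added 0.1, genes lower by over 2-fold numbered 6 in H460 and 2 in A549, differences below -1 numbered 5, and genes higher by over 2-fold in untreated H460 numbered 2. With voom, genes lower by over 2-fold in A549 numbered 2, negative differences 7, differences above 1 numbered 7, and genes higher by over 2-fold in untreated H460 numbered 2. With median-of-ratios scaling, differences above 1 numbered 6 and genes higher by over 2-fold in untreated H460 numbered 2. The cause was not tested. Without 1 library, genes higher numbered 17 to 18 and genes lower 12 to 14 in H460 (over 2-fold 12 and 3 to 4), 15 to 21 and 7 to 8 in A549 (4 to 6 and 1), 11 to 15 positive and 11 to 12 negative differences (over 1, 3 to 4 each), and 7 to 8 higher and 6 to 13 lower in untreated H460 (1 to 2 and 4 to 5), the 13 without A549 control library 3.

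Among the 23 genes named by the rule, signs turned for the following values, none of them called in the main or the changed setting. They were MAP1LC3A in H460 with an added 0.1 (0.014), VMP1 in H460 with median-of-ratios scaling (0.152) or voom (0.175), and the differences between lines of ATG4B (0.044 with either) and SQSTM1 (0.310 and 0.307). That of SQSTM1 ranged from -0.119 to 0.116 when 1 library was left out, and that of ATG101 from -0.014 (without H460 ISP-I library 3) to 0.556. Between untreated lines, PIK3C3 ranged from -0.081 (without A549 control library 3) to 0.125, and NBR1 from -0.119 to 0.026 (without A549 control library 2), and NBR1 was 0.004 with median-of-ratios scaling. Signs also turned for 9 changes or differences of 7 other genes, each uncalled on either side. At this depth, GABARAP in both lines and MAP1LC3A in H460 had too few reads for a fold.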
